A study of Mus musculus with 9 samples.

Results

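Mitochondrial ribosomal proteins build the ribosome that works inside mitochondria. In the array annotation 72 genes carry a symbol that starts with Mrpl or Mrps followed by a digit, of 16299 genes with a single symbol. They were measured by 546 probe sets, 1 to 14 per gene. By textbook assignment 45 of the 72 products belong to the large subunit and 26 to the small subunit, and Mrps36 is now known as a component of the ketoglutarate dehydrogenase complex. Mrps18a and Mrps30 carry a small-subunit name but sit in the large subunit. Of the 72 genes, 69 had at least 3 probe sets and passed the intensity filter, and Mrpl27, Mrpl41 and Mrpl47 did not.

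The mitochondrial ribosome translates the few messages of the mitochondrial genome, all of which encode core subunits of oxidative phosphorylation (OXPHOS). Its RNA comes from mitochondrial DNA, whereas every protein subunit is encoded in the nucleus, made in the cytosol and imported. Some subunits descend from bacterial ribosomal proteins, and the others are found only in mitochondrial ribosomes. White adipocytes hold fewer mitochondria than brown adipocytes or muscle fibres.

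The values come from Affymetrix exon arrays of fat around the gonads (perigonadal white adipose tissue), taken from 4-month-old mice. The 9 arrays form 3 groups of 3: G609G/G609G mice, LCS/LCS mice, and wild-type mice (WT). Both alleles lie in Lmna, the gene of lamins A and C. As background, G609G makes progerin, the truncated lamin A of progeria, and LCS makes lamin C but no lamin A; both are known as knock-in alleles of the whole animal, so no single cell type is targeted. The labels name no strain, sex, treatment or transgene. They do not say whether replicates are separate animals, so the p-values reflect the spread among the 3 arrays of a group, and that spread may be technical.

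The deposited log2 values were lower on the whole in G609G, with probe set medians of 6.52 to 6.63 there and 7.19 to 7.26 in LCS, against 7.17 to 7.28 in WT. Values below are therefore centred: each array was shifted by its median deviation from the gene means, so that 0 is the change of the median gene. A deposited difference equals the centred one plus a constant of -0.46 for G609G minus WT, 0.03 for LCS minus WT and -0.50 for G609G minus LCS, and is printed beside it. All 15 measured skeletal muscle markers rose in G609G on both scales, with a mean centred log2 value of 11.55 to 11.59 in G609G and 5.13 to 5.19 in LCS, against 4.84 to 5.05 in WT. The 6 measured brown adipocyte markers averaged 7.13 to 7.22 in G609G and 5.55 to 5.66 in LCS, against 6.10 to 6.22 in WT. Only 3 of these 6 were tested, and all 3 rose in G609G on both scales. In LCS 1 of the 3 rose and 2 fell, also on both scales. The 12 mature adipocyte markers averaged 11.27 to 11.30 in G609G and 11.96 to 11.99 in LCS, against 11.77 to 11.84 in WT. Of these 12, 4 rose and 6 fell in G609G centred, with a median difference of -0.07 and a lowest of -5.41. In LCS 5 of them rose and 1 fell, with a median of 0.10 and a highest of 1.11. Of 16 epididymis and testis markers 13 fell and 2 rose in G609G, and 10 fell and 3 rose in LCS, on the centred scale. Between G609G and LCS 10 of them were higher and 6 lower, with differences from -7.99 to 8.05. Of 11 macrophage markers 9 fell and 1 rose in G609G, and 9 rose and 0 fell in LCS, also centred. The part of these cell types in the results below was not tested, and in bulk tissue fewer cells of a type and less RNA per cell cannot be told apart. The map of all 72 genes by array shows where the G609G columns stand apart from the LCS and WT columns.

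**Figure D1:**
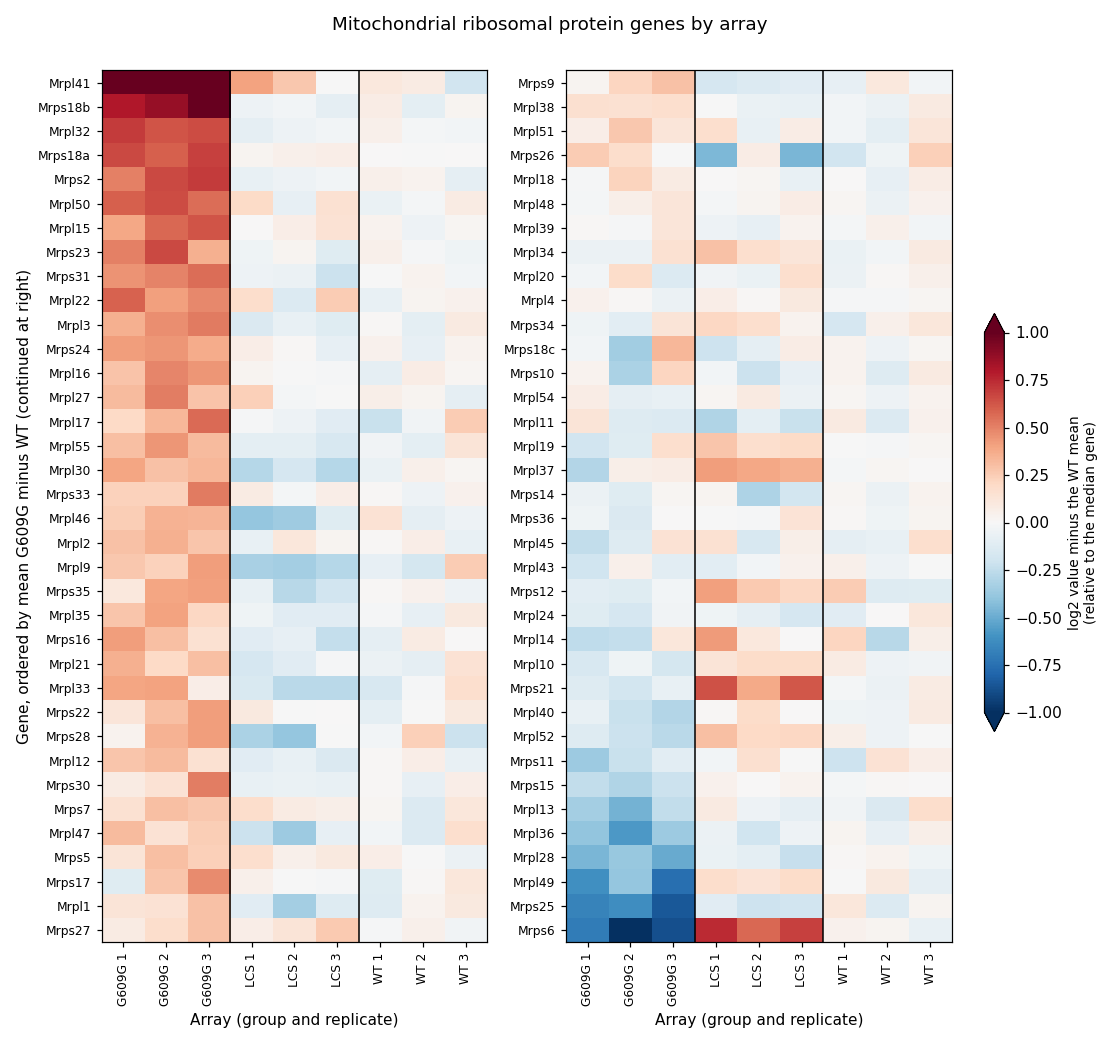
Each row is 1 of the 72 genes and each column 1 array (G609G, LCS and WT, replicates 1 to 3); colour gives the centred log2 value minus the gene's WT mean. Mrpl41 and Mrps18b have the reddest G609G columns (higher than WT) and Mrps6 the bluest (lower); on the deposited scale every G609G column would move by the same -0.46 against WT.

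The first comparison sets G609G fat against WT fat. On the centred scale 30 of 69 members rose and 10 fell at an adjusted p under 0.05 (limma, Benjamini-Hochberg over 11342 genes), whereas on the deposited scale 3 rose and 41 fell. Among all tested genes 34% rose and 36.7% fell centred (70.7% in either direction), and 8.26% rose and 71.3% fell deposited (79.5% in either direction). The members' median difference was 0.16 centred and -0.30 deposited, where the medians of all tested genes were -0.01 and -0.47. When dim genes also helped to set the zero, 16 of 70 members rose and 17 fell with a median of 0.02, where 33% of all 15123 genes rose and 36.6% fell, so the excess of rises depends on which genes define the zero. The order and the spread of the members do not: centred differences ran from -0.91 for Mrps6 to 0.90 for Mrps18b, with an interquartile range of 0.37, against 0.69 for all tested genes. A called difference of at least 1.5-fold was seen in 7 members centred and 13 deposited, where the background was 25.9% and 44.9% of all tested genes. Centred G609G and WT arrays did not overlap in 56.5% of members, against 71.6% of all tested genes, so a lack of overlap is common here.

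By subunit, 19 of 42 tested large-subunit genes rose and 7 fell centred, and 2 rose and 26 fell deposited. Of 26 small-subunit genes 11 rose and 3 fell centred, and 1 rose and 14 fell deposited. The difference between the subunits was not tested.

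Mrps18b, a small-subunit protein and 1 of 3 mammalian homologues of bacterial S18, had the largest rise among tested members. Its centred log2 value was 9.72, 9.79 and 9.93 in G609G arrays and 8.86, 8.89 and 8.82 in LCS arrays, against 8.99, 8.82 and 8.94 in WT arrays. Every G609G array lay above every LCS and WT array. The difference from WT was 0.90 ± 0.06 (SE, 3 arrays per group; limma adjusted p = 5.06e-08), or 1.86-fold, and 0.43 deposited. All 9 of its probe sets were higher in G609G, by 0.65 to 1.37. The second homologue, Mrps18a of the large subunit, read 9.15, 9.09 and 9.17 in G609G, against 8.49, 8.48 and 8.49 in WT. It rose by 0.65 ± 0.04 with no overlap (limma adjusted p = 3.35e-08; 0.19 deposited, also called). The third, Mrps18c of the small subunit, read 6.97, 6.65 and 7.33 in G609G, against 7.03, 6.95 and 7.01 in WT. Its groups overlapped, and the difference of -0.01 ± 0.14 did not pass the test (limma adjusted p = 0.934), although it passed at -0.48 deposited.

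Mrpl32, a large-subunit protein cut to its mature form by the mitochondrial m-AAA protease, read 7.97, 7.90 and 7.92 in G609G, against 7.32, 7.25 and 7.24 in WT. The groups did not overlap, and the rise was 0.66 ± 0.06 (limma adjusted p = 7.64e-07; 0.20 deposited). Mrps18b, Mrpl32 and Mrps18a were the 3 tested members that rose on both scales. Mrps2, the counterpart of bacterial S2, read 8.99, 9.15 and 9.19 in G609G, against 8.54, 8.53 and 8.40 in WT. It rose by 0.62 ± 0.06 centred (limma adjusted p = 1.41e-06), and its 0.16 deposited did not pass (adjusted p = 0.0557). Mrpl50 (0.60), Mrpl15 (0.53), Mrps23 (0.51) and Mrps31 (0.50) also rose centred and read 0.04 to 0.14 deposited, where none passed. Of the 30 centred rises 22 had no call deposited, and 5 were falls there: Mrpl30, Mrpl12, Mrps7, Mrps5 and Mrpl38.

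Mrpl41, a large-subunit protein found only in mitochondrial ribosomes, had 2 probe sets and so was outside the main test. Its centred value was 8.39, 8.38 and 8.28 in G609G arrays and 6.83, 6.70 and 6.42 in LCS arrays, against 6.53, 6.51 and 6.24 in WT arrays. No G609G array came near the other arrays, and both probe sets were higher in G609G than in WT, by 1.92 and 1.93. Only 1 of the 2 had a mean above the probe set filter of 5.01. With genes of 1 or 2 probe sets also tested, a setting added once the data had been seen, the difference was 1.90 ± 0.11 (limma adjusted p = 3.69e-08), or 3.74-fold. The LCS difference of 0.23 ± 0.11 did not pass there (limma adjusted p = 0.136). Mrpl47, below the intensity filter, read 5.21, 5.04 and 5.14 in G609G arrays and 4.68, 4.53 and 4.81 in LCS arrays, against 4.87, 4.76 and 5.06 in WT arrays. Mrpl27 had 1 probe set with that symbol alone, which read 3.17, 3.37 and 3.14 in G609G arrays and 3.09, 2.84 and 2.85 in LCS arrays, against 2.92, 2.89 and 2.76 in WT arrays.

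Mrps6, the counterpart of bacterial S6, led the falls. Its centred value was 9.80, 9.36 and 9.62 in G609G arrays and 11.24, 11.07 and 11.18 in LCS arrays, against 10.54, 10.52 and 10.42 in WT arrays. The 3 groups did not overlap, with LCS above WT and G609G below it. The difference was -0.91 ± 0.09 in G609G (limma adjusted p = 1.83e-06; -1.37 deposited) and 0.67 ± 0.09 in LCS (adjusted p = 7.96e-05; 0.70 deposited). In humans SLC5A3, a myo-inositol transporter gene, shares exons with MRPS6, and 2 further probe sets of the array are assigned to both mouse symbols. Slc5a3 differed by -1.73 ± 0.06 in G609G (limma adjusted p = 1.42e-10) and by 0.36 ± 0.06 in LCS (adjusted p = 0.000522), both centred. Of the 4 probe sets of Mrps6, 3 differed by -0.87, -0.92 and -1.45 between G609G and WT. The brightest, 5371474, read 12.24, 12.04 and 11.91 in G609G arrays and 11.98, 12.16 and 12.19 in LCS arrays, against 11.89, 12.08 and 11.61 in WT arrays, which overlap. Whether Slc5a3 transcripts reach the other 3 probe sets was not tested, so the gene value of Mrps6 is uncertain.

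Mrps25, a small-subunit protein without a bacterial counterpart, read 6.86, 6.91 and 6.68 in G609G, against 7.64, 7.39 and 7.55 in WT. The groups did not overlap, and the difference was -0.71 ± 0.08 (limma adjusted p = 1.16e-05; -1.17 deposited). Mrpl49, of the same class in the large subunit, read 7.25, 7.48 and 7.11 in G609G arrays and 8.04, 8.001 and 8.04 in LCS arrays, against 7.86, 7.96 and 7.77 in WT arrays. All G609G arrays lay below the others, with -0.58 ± 0.09 against WT (limma adjusted p = 7.61e-05; -1.05 deposited). Mrpl36 (-0.45), Mrpl28 (-0.45), Mrpl13 (-0.35), Mrps15 (-0.25), Mrpl52 (-0.20), Mrpl40 (-0.20) and Mrpl10 (-0.13) completed the centred falls. All 10 also fell on the deposited scale, and in Mrpl10 alone did the G609G and WT arrays overlap. Among all tested genes 71.6% had no overlap between these groups. The call of Mrpl10, which holds the ribosomal stalk, was lost without WT replicate 1 or 3, G609G replicate 1 or 3, or LCS replicate 3, at -0.14 to -0.07. It was also lost at -0.13 to -0.10 with plain means of probe sets, the higher filters on genes or on probe sets, no trend, array weights or 6 arrays (limma adjusted p = 0.0644 to 0.122). Mrpl52 lost its call with plain means (-0.18, adjusted p = 0.0821).

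Further members were followed for a known place in the ribosome or a known role. Mrps18a, Mrps18b, Mrps18c, Mrpl10 and Mrpl41 of that set are described above, some of them at the ends of the range. Mrpl12, the stalk protein that also binds the mitochondrial RNA polymerase, rose by 0.25 ± 0.05 centred (limma adjusted p = 0.00159) and fell deposited (-0.21). Mrpl11, at the base of the stalk (-0.05), and Mrpl45, which lies near the exit tunnel and binds the inner membrane (-0.08), had no centred call and fell deposited (-0.51 and -0.54). Near the decoding site, Mrps5 rose centred (0.22) and fell deposited (-0.24), and Mrps12 had no centred call (-0.08) and fell deposited (-0.55). Mrps16 (0.29) and Mrps22 (0.28), both mutated in inherited mitochondrial disease, rose centred and read -0.17 and -0.18 deposited, where neither passed. Mrps22 lost its call without WT replicate 1 or 2, G609G replicate 2 or 3, or LCS replicate 1, at 0.16 to 0.23. It also lost it with quantile normalization (0.15), plain means (0.17), no intensity filter (0.13) and probe sets above the 25th percentile (0.12; limma adjusted p = 0.111 to 0.288 over these 4). Without the intensity filter Mrpl12 (0.10), Mrps5 (0.08) and Mrps16 (0.14) had no call either. Mrps34 (-0.01), also a disease gene, and Mrps27 (0.18), a pentatricopeptide repeat protein, had no centred call and fell deposited (-0.47 and -0.28). Mrps36 read -0.06 centred (limma adjusted p = 0.44) and fell deposited (-0.52).

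**Figure D2:**
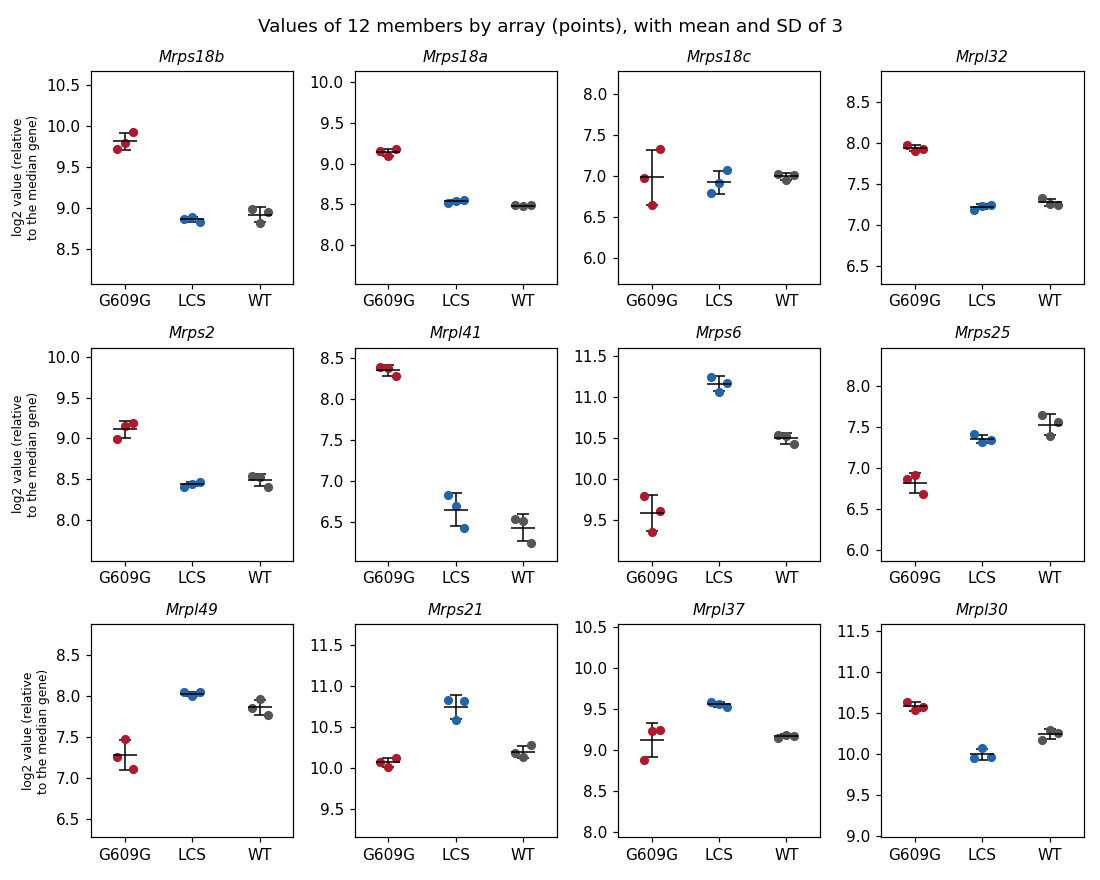
Centred log2 values of 12 members in each array (points), with the mean and SD of 3 (bars), for G609G, LCS and WT. Mrps18b, Mrps18a, Mrpl32, Mrps2 and Mrpl41 are higher in every G609G array than in any WT array, Mrps6, Mrps25 and Mrpl49 are lower and Mrps18c overlaps; on the deposited scale the G609G points would move by -0.46 against WT, which leaves Mrps2 without a call.

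The second comparison sets LCS fat against WT fat, and few members changed. Of 69 members, 6 rose and 3 fell centred, and 6 rose and 1 fell deposited. The 3 falls became 7 with plain means of probe sets, 8 with array weights, 8 with 6 arrays and 6 without G609G replicate 1, where 18.9%, 23.1% and 23.9% of all tested genes fell in the first 3 of these. Among all tested genes 22.3% rose and 17.7% fell centred (40% in either direction), and 22.5% rose and 13% fell deposited (35.5% in either direction). Thus 13.0% of members were called centred and 10.1% deposited, with medians of -0.02 and 0.02. A called difference of at least 1.5-fold was seen in 1 member, against 8.28% of all tested genes. Centred LCS and WT arrays did not overlap in 27.5% of members, against 57.8% of all tested genes.

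Mrps6 (described above) and Mrps21 showed the largest rises in LCS. Mrps21, the counterpart of bacterial S21, read 10.07, 10.02 and 10.12 in G609G arrays and 10.83, 10.58 and 10.82 in LCS arrays, against 10.18, 10.14 and 10.28 in WT arrays. The LCS arrays lay above all others, with a rise of 0.55 ± 0.06 (limma adjusted p = 2.92e-05; 0.58 deposited). Mrpl37 read 8.88, 9.23 and 9.25 in G609G arrays and 9.59, 9.56 and 9.53 in LCS arrays, against 9.15, 9.19 and 9.18 in WT arrays. It rose by 0.39 ± 0.08 in LCS with no overlap with WT (limma adjusted p = 0.00196; 0.42 deposited). Mrpl52 (0.24), Mrpl34 (0.19) and Mrpl10 (0.16) rose by less, and deposited Mrpl34 did not pass. Mrpl34 lost its call without any of the 3 WT replicates, G609G replicate 2 or LCS replicate 1 (0.15 to 0.23), and Mrpl10 without WT replicate 2 or 3 or LCS replicate 3 (0.12 to 0.15). With plain means Mrpl52 (0.19, limma adjusted p = 0.0848) and Mrpl10 (0.14, adjusted p = 0.0659) had no call, and with no trend Mrpl34 (adjusted p = 0.0747).

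The falls in LCS were Mrpl9 (-0.32), Mrpl46 (-0.29) and Mrpl30 (-0.24), and deposited only Mrpl30 passed. Mrpl30, the counterpart of bacterial L30, read 10.63, 10.53 and 10.57 in G609G arrays and 9.95, 10.07 and 9.95 in LCS arrays, against 10.17, 10.29 and 10.25 in WT arrays. The LCS arrays lay below the WT arrays and the G609G arrays above them. Mrpl9 lost its call without WT replicate 3 (-0.18), LCS replicate 2 (-0.33) or the intensity filter (-0.29, limma adjusted p = 0.0553), and Mrpl46 without WT replicate 1, LCS replicate 1 or LCS replicate 2 (-0.27 to -0.23).

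Setting G609G against LCS tests the difference between the alleles. Centred, 32 members rose and 16 fell, where the background was 36.9% in each direction (73.8% in either); deposited, 3 rose and 40 fell, against 9.38% and 70.5% (79.9% in either). At least a 1.5-fold called difference was seen in 10 members centred and 20 deposited, against 29.5% and 47.5% of all tested genes. With dim genes also setting the zero, 22 of 70 members rose and 24 fell, where 35.6% of all 15123 genes rose and 36.4% fell, and the median was -0.02 instead of 0.14. Mrps18b differed by 0.95 ± 0.06 (limma adjusted p = 2.33e-08; 0.46 deposited), and Mrps6 by -1.57 ± 0.09 (adjusted p = 9.47e-09; -2.07 deposited). Mrpl9, Mrpl46 and Mrpl30, which rose in G609G and fell in LCS against WT on the centred scale only, differed between the alleles by 0.62, 0.60 and 0.58 centred. Deposited, these differences were 0.13, 0.10 and 0.09 and none passed, and Mrpl30 fell against WT in both mutants. Mrps6, Mrpl52 and Mrpl10 fell in G609G and rose in LCS against WT on both scales, with -1.57, -0.44 and -0.29 between the alleles. These comparisons share arrays, so a pattern across them is no independent support. On the centred scale 19 members had no call in any of the 3 comparisons.

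Related gene groups give a frame for these counts. They were chosen by symbol. Of all tested genes 34% rose and 36.7% fell in G609G centred, and 8.26% rose and 71.3% fell deposited. In LCS 22.3% rose and 17.7% fell centred, and 22.5% rose and 13% fell deposited. Of 71 tested genes with OXPHOS symbols, which include Ndufaf1, Ndufaf2, Atp5sl and Cox4nb, no subunits themselves, 53 rose and 6 fell in G609G centred (median 0.30), and 6 rose and 39 fell deposited. Of 36 tested genes with Rpl, Rps or Rplp symbols, most of them for cytosolic ribosomal proteins (Rps19bp1 is not one), 31 rose and 1 fell centred (median 0.33), and 2 rose and 23 fell deposited. In LCS 7 of the first group rose and 19 fell centred (7 and 15 deposited), and 1 of the second rose and 22 fell (1 and 19 deposited). The differences between these groups and the members were not tested.

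**Figure D3:**
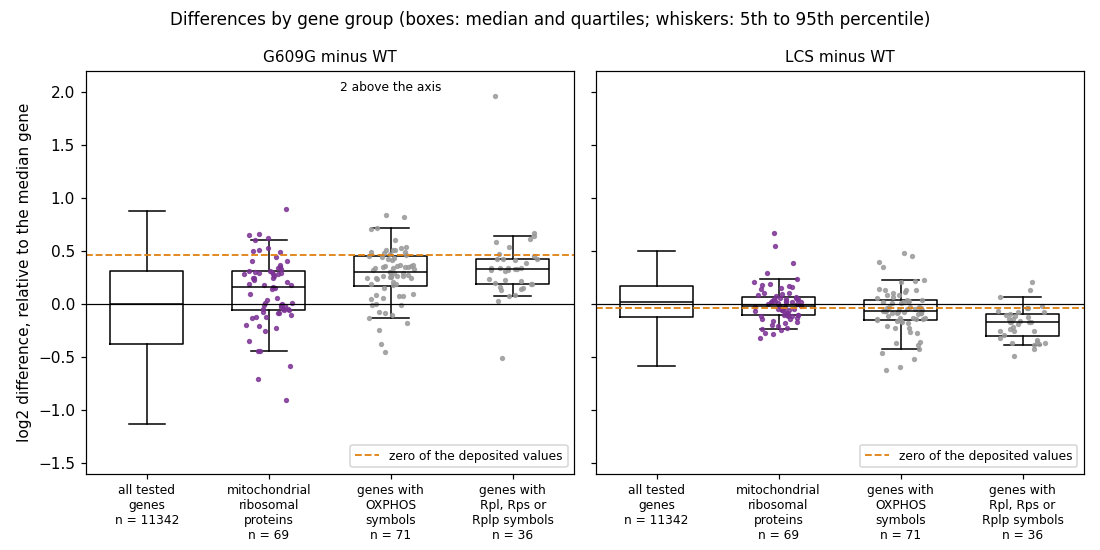
Centred log2 differences, G609G minus WT and LCS minus WT, for the 11342 tested genes, the 69 tested members, 71 genes with OXPHOS symbols and 36 with Rpl, Rps or Rplp symbols (points are genes); boxes give the median and quartiles and whiskers the 5th and 95th percentile. In G609G the medians of the 3 gene groups are 0.16, 0.30 and 0.33 above the median gene but below the dashed line, the zero of the deposited values; 2 genes with OXPHOS symbols in G609G and some genes of the whole set (113 above and 261 below in G609G, 1 above and 175 below in LCS) lie beyond the axis.

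Probe sets within a gene were compared next, where an offset that is equal for all probe sets of an array cancels. An offset that differs between bright and dim probe sets would not cancel, and its part here was not tested. Of 483 member probe sets above the intensity filter, 58 differed from the rest of their gene between G609G and WT (12.01% of them, against 15.7% of all probe sets; limma diffSplice, adjusted p under 0.05). Between LCS and WT 7 did (1.45% against 1.86%), and between G609G and LCS 73 did (15.1% against 18.2%). The 7 became 1 without WT replicate 2, LCS replicate 1 or LCS replicate 3, and the 73 became 44 without LCS replicate 1 or 2 and 39 without LCS replicate 3. By the splicing index 33, 2 and 46 member probe sets were called in G609G against WT, LCS against WT and G609G against LCS. A probe set of Mrpl37 had the lowest p among the members in each comparison. Its probe set 4653695 read 8.76, 8.42 and 8.91 in G609G arrays and 10.91, 11.20 and 11.03 in LCS arrays, against 10.35, 10.45 and 10.42 in WT arrays. The groups were apart, and the probe set differed from the rest of Mrpl37 by -1.41 in G609G against WT (limma diffSplice adjusted p = 1.54e-10).

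A second Mrpl37 probe set, 4778028, read 7.16, 6.57 and 6.62 in G609G arrays and 9.53, 9.53 and 9.63 in LCS arrays, against 8.38, 8.42 and 8.44 in WT arrays, the same order. It differed from the rest of Mrpl37 by -1.31 in G609G against WT (limma diffSplice adjusted p = 1.12e-09), 0.75 in LCS against WT (adjusted p = 0.00101) and -2.06 in G609G against LCS (adjusted p = 1.98e-16). With 4668380, 3 of the 8 Mrpl37 probe sets differed by -1.71, -0.97 and -1.63 between G609G and WT, and the other 5 by -0.01 to 0.27. The gene value of Mrpl37 in G609G (-0.05) therefore merges probe sets with unlike differences. The place of these probe sets in the transcript was not analysed here.

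In Mrpl28, a large-subunit protein, 1 probe set went against its gene. Probe set 5394480 read 9.90, 9.94 and 9.53 in G609G, against 8.68, 8.75 and 8.83 in WT, and differed from the rest by 1.61 (limma diffSplice adjusted p = 4.88e-08), while the other 5 differed by -0.99 to -0.15. In Mrps25 probe set 5215526 differed from the rest by 1.61 (adjusted p = 3.98e-06), and in Mrpl30 probe set 5409601 by -1.31 (adjusted p = 2.87e-06). The last averaged 4.93 ± 0.29 in G609G arrays, against 5.71 ± 0.75 in WT arrays (SD, n = 3), so it lies near the filter of 5.01. In LCS against WT the next after Mrpl37 were probe sets of Mrps23 (0.79 from the rest, adjusted p = 0.00479) and Mrpl2 (0.81, adjusted p = 0.0109).

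**Figure D4:**
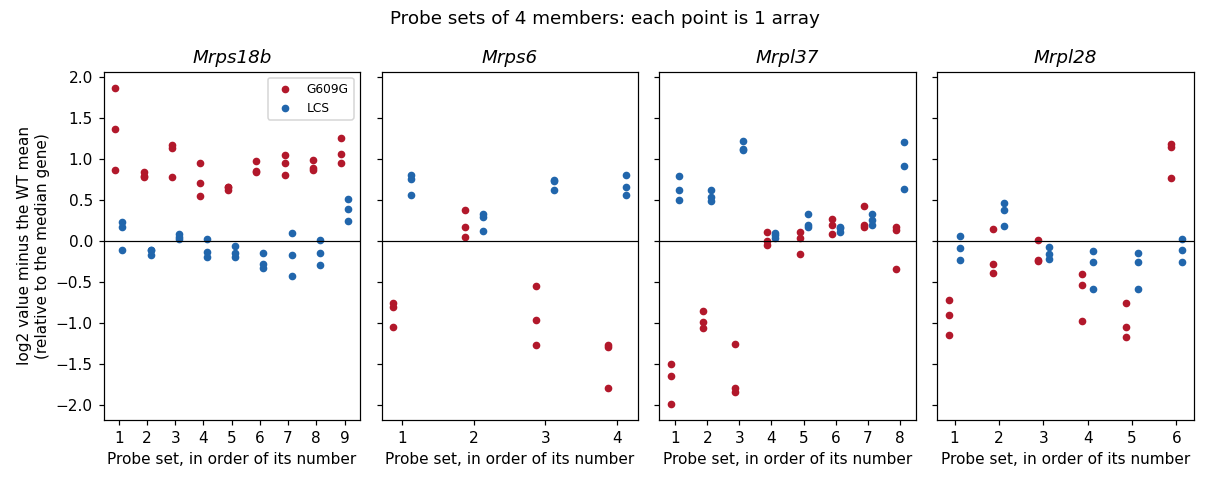
Centred log2 value of each G609G and LCS array minus the WT mean for every probe set of 4 members, in order of probe set number. All 9 Mrps18b probe sets are above WT in G609G by 0.65 to 1.37; in Mrpl37 the first 3 lie below WT in G609G (-1.71, -0.97 and -1.63) and above it in LCS, in Mrps6 the second probe set and in Mrpl28 the last go against the rest in G609G; the deposited scale would move all G609G points by -0.46 together.

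Partners of the ribosome moved in both directions in G609G, as did the tested genes as a whole. Of all tested genes 34% rose and 36.7% fell centred, and 8.26% rose and 71.3% fell deposited. Of 6 tested subunits with other names 3 rose and 1 fell centred, and 4 fell deposited. Chchd1, a small-subunit protein, read 8.05, 8.04 and 7.88 in G609G, against 7.23, 7.38 and 7.53 in WT and rose by 0.61 centred (limma adjusted p = 7.64e-05; 0.14 deposited, no call). Ict1, a peptidyl-tRNA hydrolase built into the large subunit, differed by -0.37 (adjusted p = 1.72e-05; -0.83 deposited). Of 13 translation factors 3 rose and 4 fell centred, and 1 rose and 12 fell deposited. C1qbp, a matrix protein needed for mitochondrial translation, rose on both scales (0.79; 0.33 deposited), and the initiation factor Mtif2 (-0.50) and the elongation factors Tsfm (-0.38) and Tufm (-0.36) fell on both. Of 16 assembly factors 5 rose and 3 fell centred, and 1 rose and 12 fell deposited. Their differences ran from -0.92 to 0.84 centred and from -1.38 to 0.38 deposited. Ddx28 was higher in G609G than in WT by 0.76 to 0.94 centred over the fits with 1 array left out. Tfb1m, the methyltransferase of the small-subunit RNA, read 7.12, 7.06 and 7.30 in G609G arrays and 7.81, 7.73 and 7.73 in LCS arrays, against 8.10, 8.04 and 8.10 in WT arrays. The groups were apart, with -0.92 ± 0.07 in G609G (limma adjusted p = 1.88e-07; -1.38 deposited) and -0.32 ± 0.07 in LCS (adjusted p = 0.00312; -0.28 deposited). Of 17 mitochondrial tRNA synthetase and amidotransferase genes 4 rose and 4 fell centred, and 14 fell deposited.

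Of 13 genes of mitochondrial DNA transcription, RNA processing and replication 7 rose and 1 fell in G609G centred, and 2 rose and 6 fell deposited. The shares of all tested genes were 34% and 36.7% centred, and 8.26% and 71.3% deposited. Hsd17b10, a subunit of mitochondrial RNase P (1.23; 0.77 deposited), and Tfb2m, the initiation factor of mitochondrial transcription (1.16; 0.69 deposited), rose on both scales. Of 12 regulators of mitochondrial biogenesis 7 rose and 1 fell centred, and 4 rose and 5 fell deposited. Ppargc1a, a coactivator of biogenesis that is also on the brown adipocyte list, read 9.05, 9.08 and 9.19 in G609G arrays and 6.90, 6.67 and 6.48 in LCS arrays, against 7.57, 7.55 and 7.48 in WT arrays. The 3 groups were apart, with 1.57 ± 0.09 in G609G (limma adjusted p = 1.67e-08; 1.11 deposited) and -0.85 ± 0.09 in LCS (adjusted p = 1.5e-05; -0.81 deposited). Gabpb1 (1.54) and Nrf1 (0.72), which encode parts of factors known to bind promoters of mitochondrial genes, rose in G609G on both scales. In LCS, where 40% of all tested genes were called centred and 35.5% deposited, 1 of 13 translation factors rose and 2 fell on both scales. Of 16 assembly factors 3 fell centred and 2 deposited. Of 17 synthetase genes 1 rose and 2 fell centred, and 1 was called deposited, a rise. Of 13 genes of the DNA machinery 2 rose and 1 fell centred, and 1 rose and 1 fell deposited. Of 12 regulators 1 rose and 1 fell on both scales.

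Promoter sequence was read from RefSeq (build GRCm38.p6) for 63 of the 72 members, in windows of 300 bases, 250 before the start and 50 after it, on both strands. CCGGAAG, letters bound by ETS factors such as GABP, stood in 36.5% of members, against 9.93% of all 27025 genes with a window and 18.1% of the 9131 tested genes with one. AAGATGGC (YY1) stood in 17.5% of members, against 3.19% of all genes and 4.88% of tested genes. GCATGCGC, the core letters of an NRF1 site, stood in 12.7% of members, against 3.05% and 5.51%; these include 3 members with the longer palindrome of that site. CACGTG (E-box) stood in 7.94% of members, against 8.09% and 11.8%, and TATAAA in 7.94%, against 15.7% and 9.5%. The NRF1 core stood in 6 of 27 members that rose in G609G centred, 1 of 9 that fell and 1 of 24 with no call. For the ETS letters these counts were 11 of 27, 1 of 9 and 10 of 24. A match describes letters only, and no test was made.

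Of the 63 members with a window, 34.9% start back to back with another gene within 500 bases, against 16.4% of tested genes. For 13 tested members with a tested partner that is no member, 9 pairs shared their sign in G609G centred and 10 in LCS. Both genes were called in 6 pairs in G609G, 3 in the same direction and 3 in opposite directions. The shares over all back-to-back genes were not computed. Mrpl46 and Mrps11 form a back-to-back pair of 2 members, 42 bases apart. In G609G they read 0.31 (limma adjusted p = 0.00799) and -0.23 (adjusted p = 0.0556) centred, or -0.15 and -0.69 deposited, and the difference between the 2 genes was not tested.

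The 150 bases before the start are shown for the 3 S18 homologues, whose values differed, and for Mrpl32, Mrpl41, Mrps6 and Mrps25, which stood at the ends of the range on both scales. Capitals mark the ETS, YY1 and NRF1 core letters on either strand.
Mrps18b, chr17:35916441-35916590, minus strand: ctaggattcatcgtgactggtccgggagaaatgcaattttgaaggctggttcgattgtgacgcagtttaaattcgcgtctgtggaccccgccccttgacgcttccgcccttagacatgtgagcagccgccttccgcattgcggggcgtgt
Mrps18a, chr17:46110854-46111003, plus strand: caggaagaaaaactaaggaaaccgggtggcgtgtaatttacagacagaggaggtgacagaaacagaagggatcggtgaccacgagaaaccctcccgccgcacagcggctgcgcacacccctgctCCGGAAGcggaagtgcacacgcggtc
Mrps18c, chr5:100798609-100798758, plus strand: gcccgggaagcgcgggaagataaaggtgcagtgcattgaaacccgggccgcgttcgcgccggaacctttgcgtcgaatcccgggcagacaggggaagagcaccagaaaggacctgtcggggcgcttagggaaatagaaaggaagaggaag
Mrpl32, chr13:14613038-14613187, minus strand: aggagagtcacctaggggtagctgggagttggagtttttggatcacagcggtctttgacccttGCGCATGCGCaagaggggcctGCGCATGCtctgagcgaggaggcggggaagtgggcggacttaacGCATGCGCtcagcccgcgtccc
Mrpl41, chr2:24975099-24975248, minus strand: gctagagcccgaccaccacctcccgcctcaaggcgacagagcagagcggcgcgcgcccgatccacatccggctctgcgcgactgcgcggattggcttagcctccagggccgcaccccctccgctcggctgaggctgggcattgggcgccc
Mrps6, chr16:92058186-92058335, plus strand: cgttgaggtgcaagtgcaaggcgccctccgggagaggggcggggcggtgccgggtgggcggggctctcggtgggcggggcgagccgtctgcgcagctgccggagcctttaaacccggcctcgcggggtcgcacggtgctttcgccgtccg
Mrps25, chr6:92184024-92184173, minus strand: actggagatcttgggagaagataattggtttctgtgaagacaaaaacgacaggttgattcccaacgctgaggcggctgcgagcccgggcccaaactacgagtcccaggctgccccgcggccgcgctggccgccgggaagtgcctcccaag
Mrpl32 holds 3 runs of NRF1 letters in these bases, the first of them the palindrome. Mrps18a holds 1 run of ETS letters. No run stands in the bases shown of the other 5 genes, but outside them the full windows hold ETS letters in Mrps18b and Mrps18c, NRF1 letters in Mrps18b, and YY1 letters in Mrps18a and Mrpl32.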

How the data were processed

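The authors deposited log2 intensities per probe set of Affymetrix exon arrays. Per the labels' protocols, frozen tissue was ground and extracted in TRIreagent, and the RNA was fragmented and biotinylated with the WT Terminal Labeling Kit. The submitters' processing notes name the build mm9; the normalization and the software are not given in the sources used here. Array number limits the precision.

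Of 229581 probe sets, 208397 have 1 gene symbol in GEO's platform annotation, 3965 several and 17219 none; only the first were summarised, by median polish, into 16299 genes. Each array was shifted by its median deviation from the gene means. Genes were kept if they had 3 or more probe sets and a mean over the 25th percentile (5.09), and tested with limma's moderated test with an intensity trend (limma 3.58.1, R 4.3.3) over all 9 arrays, with Benjamini-Hochberg adjustment over 11342 genes and a threshold of 0.05. Probe sets above 5.01 (158136) were tested against their gene with diffSplice. In simulated data for G609G minus WT over 11342 genes, 100 genes were changed by 0.5 and 100 by 0.25 log2 units. Of these 72% and 25% were recovered, with 4 false calls. In the data 70.7% of tested genes were called in this comparison. The adjustment is less strict with so many changes, so the simulated rates do not carry over to the data.

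Same-numbered G609G and WT arrays deviated together weakly (r = 0.17, 0.15 and 0.34). The labels name no pairing, so whether these arrays are paired is not known. Same-numbered arrays of the other comparisons did not all deviate together (r = -0.11, 0.20 and 0.085 in LCS minus WT). The fit with the replicate number as a block is an alternative. Other alternatives were the deposited scale, quantile normalization, other filters and summaries, no trend, array weights, the methods' t-test with a 1.5-fold threshold, the splicing index and leaving out each array.

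The members and gene lists were chosen with earlier results of these data known. Members were named if they were among the 8 largest called rises or falls without overlap in a comparison, in a set known for its position or role, or untested. Genes of the lists were named if they were among those with the lowest p of their list in a comparison, called or not. Mrps36, Mrps11, Mrps7, Mrpl38, Mrpl40 and the probe sets were named after their values were seen. Promoters came from RefSeq (GRCm38.p6), matched by symbol or synonym.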

Additional observations from a re-analysis of the deposited data

Results flagged for a closer look

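Probe sets assigned to 2 symbols entered no gene value, and 2 groups of them stood apart from WT in every array. The 2 probe sets shared by Mrps6 and Slc5a3 averaged 9.97, 9.81 and 10.05 in LCS, against 9.38, 9.51 and 9.27 in WT, a centred difference of 0.55. In G609G they averaged 8.38, 8.16 and 8.24, a difference of -1.13 from WT. The 6 probe sets shared by Mrpl27 and EG622268 averaged 9.39, 9.35 and 9.40 in G609G, against 9.09, 9.11 and 9.17 in WT, a centred difference of 0.25; with the constant of -0.46 added, its sign is turned on the deposited scale. Which of the paired genes gives the signal was not tested.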

How the results depend on the processing

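Directions depend most on the scale. On the deposited scale the members that rose and fell were 3 and 41 in G609G against WT, 6 and 1 in LCS against WT, and 3 and 40 in G609G against LCS, by construction of the constant between the scales. The sign differed between the scales for 33 of 69 members between G609G and WT, 5 between LCS and WT and 31 between the alleles. Among the genes followed through all settings, it turned on the deposited scale in G609G minus WT for Mrpl12 -0.21, Mrps5 -0.24, Mrps16 -0.17, Mrps22 -0.18, Mrps27 -0.28, Polg -0.11, Gadd45gip1 -0.080, Mrp63 -0.23 and Yars2 -0.12, and in G609G minus LCS for Mrps18c -0.44, Mrpl11 -0.34, Mrpl12 -0.14, Mrps5 -0.38, Mrps16 -0.063, Mrps22 -0.25, Mrps27 -0.47, Rnmtl1 -0.16, Mrp63 -0.28, Gadd45gip1 -0.29 and Yars2 -0.16; Dap3 read 0 in LCS minus WT. Without the intensity filter 16 members rose and 17 fell in G609G against WT, because more genes set the zero, and in G609G minus LCS the signs of Mrps18c -0.11, Mrpl11 -0.010, Mrps5 -0.054 and Mrps27 -0.14 turned. Values near 0 also turned with quantile normalization (G609G minus WT Mrps18c 0.040, Mrpl11 0.018, Mrps12 0.055 and Mrps34 0.052; LCS minus WT Mrpl45 -0.0096 and Ptcd3 0.014; G609G minus LCS Mrps27 -0.021), plain means of probe sets (Mrps34 0.064 in G609G and Mrpl45 -0.025 in LCS against WT; Mrps27 -0.00100 between alleles), genes above the 50th percentile (Mrps18c 0.017 and Mrps34 0.025 in G609G against WT), probe sets above the 25th percentile (Mrps18c 0.015 and Mrps34 0.023 in G609G and Mrpl45 -0.0048 in LCS against WT), array weights (Mrps18c -0.10 and Mrps27 -0.0024 between alleles) and fits of 6 arrays (Mrps34 0.0050 in G609G and Mrpl45 -0.0065 in LCS against WT). The cause of these was not tested. Members that fell in LCS against WT numbered 7 with plain means, 8 with array weights and 8 with 6 arrays, against 3. The methods' t-test with a 1.5-fold threshold called 5 rises and 2 falls in G609G against WT, 1 and 0 in LCS against WT and 7 and 3 in G609G against LCS, with or without Benjamini-Hochberg adjustment, where the fold threshold leaves fewer genes; the 0 compares with 3 falls by limma. Among all tested genes the unadjusted test called 9.68% and 16%, 3.17% and 5.04%, and 12.1% and 17.2% in these comparisons. Probe sets above the 50th percentile left 4 calls in LCS against WT, and the splicing index 33 (G609G against WT), 2 (LCS against WT) and 46 (G609G against LCS).

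With the replicate number as a block the rises and falls were 30 and 12 in G609G against WT, 7 and 3 in LCS against WT and 32 and 17 in G609G against LCS, and probe sets called 67, 7 and 78; no call of a named gene in G609G against WT changed. Leaving out 1 array gave 22 to 33 rises and 8 to 10 falls in G609G against WT, 4 to 8 and 2 to 6 in LCS against WT (6 falls without G609G replicate 1, 2 without WT replicate 3, 4 rises without WT replicate 2) and 29 to 33 and 13 to 17 in G609G against LCS. Probe sets called ranged over 43 to 77, 1 to 10 and 39 to 82; they were 44 without LCS replicate 1 or 2 and 39 without LCS replicate 3 in G609G against LCS, and in LCS against WT 1 without WT replicate 2 or LCS replicate 1 or 3, 3 without WT replicate 3, 4 without WT replicate 1 or LCS replicate 2 and 10 without G609G replicate 3. The sign turned in these fits for Mrps12 -0.15 to 0.041, Mrps34 -0.099 to 0.094, Mrpl45 -0.17 to 0.027, Mrps18c -0.18 to 0.13, Mrpl11 -0.14 to 0.036 (G609G minus WT), Mrpl45 -0.070 to 0.10, Mrps22 -0.061 to 0.18, Mrps18c -0.18 to 0.016, Ptcd3 -0.087 to 0.040 (LCS minus WT) and Mrpl45 -0.17 to 0.040, Mrps18c -0.11 to 0.20 (G609G minus LCS). Over the named genes 1591 of 1896 values under the other settings and 1222 of 1341 with 1 array left out kept direction and side of the threshold. Mrpl47 and the 1 probe set of Mrpl27 with a single symbol are dim and limited by signal over background. The 6 probe sets that Mrpl27 shares with EG622268 are bright (9.09 to 9.40), so the low reading need not hold for the gene.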
